A study of Homo sapiens with 6 samples.

Results

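The resting transcriptome of SW1353 cells was read from the 3 control arrays of the series. SW1353 is a human cell line grown from a chondrosarcoma, a malignant tumour of cartilage-forming cells, and it is widely used in place of chondrocytes, so all samples stand for 1 tumour-derived line. The cells were seeded in medium with serum, were moved to medium without it for about 20 h, and then received no IL-1 over the last 6 h. The rest of the series is 3 arrays from cells handled alike but given IL-1alpha at 0.5 ng/ml for those 6 h, which makes 6 arrays in all. No sample kept in serum was analysed here, so what the starvation itself changed was not tested. Total RNA was turned into biotin-labelled cRNA and hybridised to Illumina bead arrays of 48784 probes, and each probe has a signal and a detection p-value, which sets that signal against the negative control beads of the same array.

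A probe was counted as expressed when its detection p was under 0.01 on all 3 control arrays, and a gene when at least 1 of its probes was. By this rule 11847 of 48784 probes (24.3%) were expressed, 958 passed on 2 arrays, 1580 on 1 and 34399 on none. A single gene name was available for 28085 probes, which cover 18848 genes. Of these genes 8441 (44.8%) were expressed, 1325 (7.03%) had a probe detected on 1 or 2 arrays only, and 9082 (48.2%) were not detected on any. That 44.8% is the background against which the share of each gene group below is read. It is not matched to the groups by gene type or number of probes. Among protein-coding genes the share was 48.0% and among lncRNA genes 4.25%. Of 6130 genes with more than 1 probe, any of which could meet the rule, 3365 were expressed. Levels are log2 signals after background correction and normalization of the 3 arrays, given in the order replicate 1, replicate 2 and replicate 3. The expressed genes had a median level of 8.65, with 10% of them below 6.82 and 10% above 11.31, while the genes not detected had a median of 4.70. A level is the brightness of a probe, so the order of genes by level is not the order of their transcript numbers. "Not detected" means not above the negative beads, and does not show that a transcript is absent.

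The 3 arrays are not equally alike. Replicates 1 and 2 have titles of a kind called Allstars and replicate 3 has one of a kind called Sample, with no word in the labels on the meaning of either kind or on separate cultures. Median raw signals were 67.2, 60.3 and 95.3, and the signal of detected over undetected probes was 4.22, 3.50 and 7.12 times. The number of detected probes was similar, at 13030, 12650 and 13357. Across the 8441 expressed genes, replicates 1 and 2 differed at least 2-fold in 6 genes, replicates 3 and 1 in 402, and replicates 3 and 2 in 398. The SD over the 3 arrays had a median of 0.21. Leaving out replicate 3 gave 8612 expressed genes, and 48 of the 59 gene lists used here kept the same number of expressed members, with a largest gain of 2 members.

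Chondrocytes keep their state through the transcription factor SOX9, with SOX5 and SOX6 as partners, and fill their surroundings with type II collagen and the proteoglycan aggrecan. In the growth plate they become hypertrophic, with RUNX2 and type X collagen, before bone is laid down. IL-1 reaches such cells through the receptor IL1R1 and its partner IL1RAP, then through the adaptor MYD88, IRAK kinases, the ligase TRAF6 and the kinase TAK1 (MAP3K7), which feed the NF-kB and MAP kinase routes. The targets of those routes include cytokines, chemokines and the proteases that cut cartilage matrix.

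The resting cells held SOX9 transcripts with little of the cartilage matrix that SOX9 directs. Of 21 chondrocyte genes with a named probe, 3 (14.3%) were expressed, which is below the 44.8% of all genes. That count was 5 at a detection p under 0.05, and 1, SOX9, when every named probe had to pass. SOX9 had levels of 9.56, 9.68 and 9.41, close together on the 3 arrays. HAPLN1, the link protein that fastens aggrecan to hyaluronan, had 8.19, 8.26 and 9.20, and COL11A1, a minor fibril collagen of cartilage, had 6.86, 6.68 and 8.33, both highest on replicate 3. The defining genes of cartilage matrix were not detected on any array: COL2A1 (type II collagen) lay at 5.14, 5.79 and 5.06, with its lowest detection p at 0.0184, and ACAN (aggrecan) at 4.66, 4.75 and 4.71. SOX5 and SOX6 were not detected either, with 3 and 4 probes each, nor were COMP, the type IX collagens COL9A1, COL9A2 and COL9A3, the matrilins MATN1 and MATN3 or chondromodulin (CNMD). CYTL1, a secreted protein of cartilage, passed on replicate 3 only.

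Genes of hypertrophic cartilage and bone were partly present, 6 of 17 (35.3%). RUNX2, the regulator of hypertrophy and osteoblasts, had 7.47, 7.38 and 7.66 by 1 of its 2 probes. MSX1, a homeobox factor of developing skeleton and teeth, had 10.38, 10.59 and 10.36, and DLX5, another homeobox factor of bone, had 8.55, 8.45 and 7.87. SPP1 (osteopontin), a phosphoprotein of bone matrix, was measured at 8.23, 8.40 and 8.70. COL10A1 (type X collagen) lay at 4.60, 4.58 and 5.07 and was not detected, and SP7, IBSP and BGLAP, a factor and 2 matrix proteins of osteoblasts, were not detected. ALPL (alkaline phosphatase) passed on 2 arrays.

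The fibroblast and mesenchymal genes were the fullest lineage group, with 21 of 24 (87.5%) expressed. VIM (vimentin), the intermediate filament of mesenchymal cells, had 14.65, 14.67 and 14.51. COL1A2 and COL1A1, the chains of type I collagen, had 13.25, 13.14 and 12.88 and 11.69, 11.87 and 12.17, and CDH2 (N-cadherin) had 12.39, 12.18 and 11.93. The factors SNAI2, TWIST1 and PRRX1 and the PDGF receptors PDGFRA and PDGFRB were also expressed. The exceptions were THY1 and SNAI1, not detected, and ZEB1, detected on replicate 3 only. COL3A1 (type III collagen) at 7.98, 7.71 and 8.76 and FN1 (fibronectin) at 7.76, 7.96 and 7.47 were expressed too.

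Of the markers of other tissues, the epithelial, endothelial, leukocyte and liver lists had shares below the 44.8% of all genes, while fat cell and neural genes were near it. Epithelial genes counted 2 of 15 (13.3%), the keratins KRT8 at 7.08, 7.17 and 7.66 and KRT18 at 6.83, 6.78 and 7.15. CDH1 (E-cadherin) lay at 4.50, 4.55 and 4.56 with no detection, and EPCAM at 6.78, 5.25 and 5.51 passed on replicate 1 only. Endothelial genes counted 2 of 9 (22.2%), VWF and TEK, without PECAM1 or CDH5. Leukocyte genes counted 2 of 10 (20.0%): CD68, a lysosomal protein also made outside macrophages, had 13.14, 13.27 and 12.67, and the receptor CSF1R had 8.69, 8.74 and 7.85, whereas PTPRC (CD45), the surface protein of all white blood cells, was not detected by any of its 4 probes. Liver genes counted 1 of 12 (8.33%), the fibrinogen chain FGA by 1 of 5 probes. Neural genes counted 4 of 10 (40.0%), TUBB3, NCAM1, NES and MAP2, and fat cell genes 4 of 9 (44.4%), among them PPARG, the regulator of fat cell formation, at 9.99, 9.86 and 9.69 by 1 of 4 probes. Muscle genes counted 4 of 12 (33.3%), the smooth muscle and myofibroblast genes ACTA2 at 12.73, 12.60 and 12.17 and TAGLN at 11.55, 11.54 and 11.69, with TNNT1 and MYOG of skeletal muscle. As yardsticks for stray detection, 3 of 364 olfactory receptors (0.824%) and 1 of 75 keratin-associated proteins (1.33%) met the rule, the last being 2 without replicate 2. At the other end 68 of 75 ribosomal proteins (90.7%) and 32 of 35 proteasome subunits (91.4%) did.

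**Figure D1:**
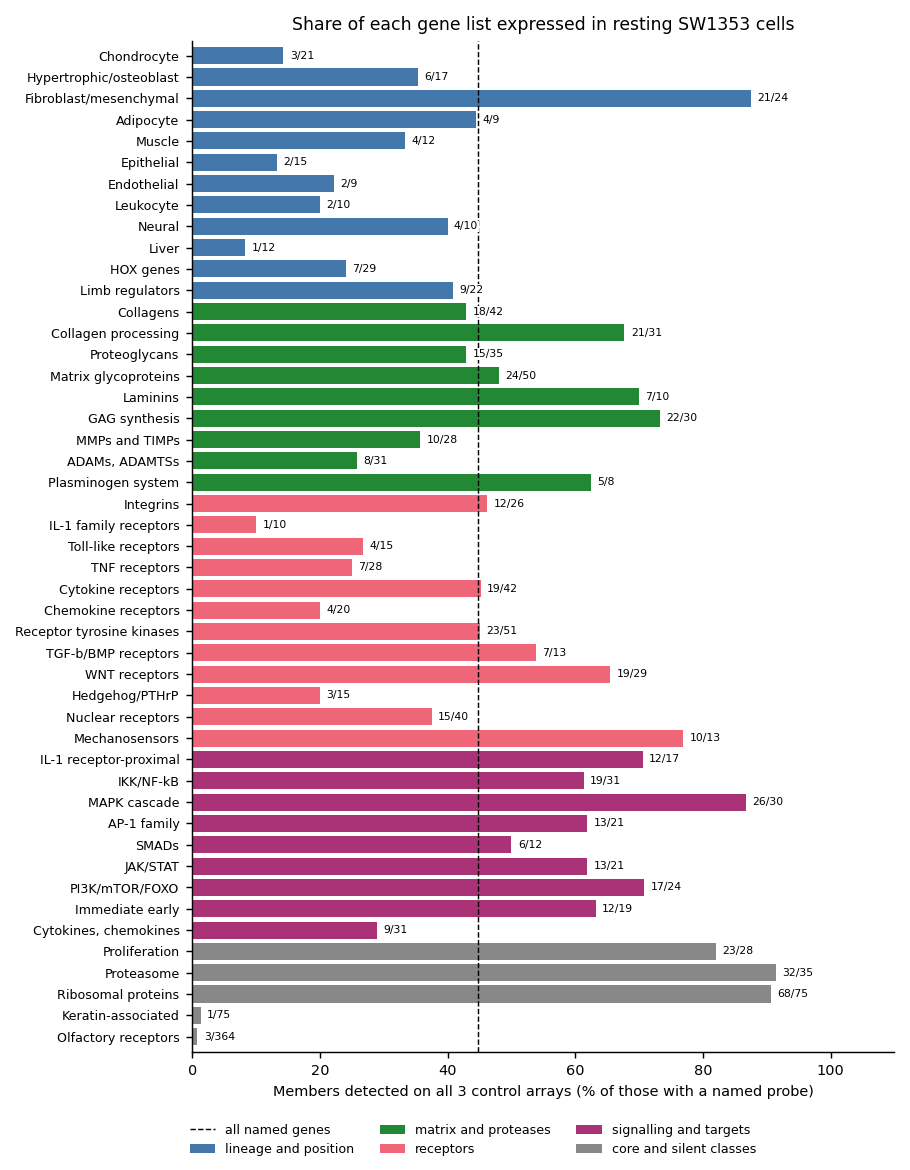
Share of each gene list detected on all 3 control arrays, in percent of the members with a named probe (counts beside the bars), coloured by theme; the dashed line marks the 44.8% of all named genes. Fibroblast and mesenchymal genes reach 87.5%, chondrocyte genes 14.3%, IL-1 family receptors 10.0% and olfactory receptors 0.824%.

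**Figure D2:**
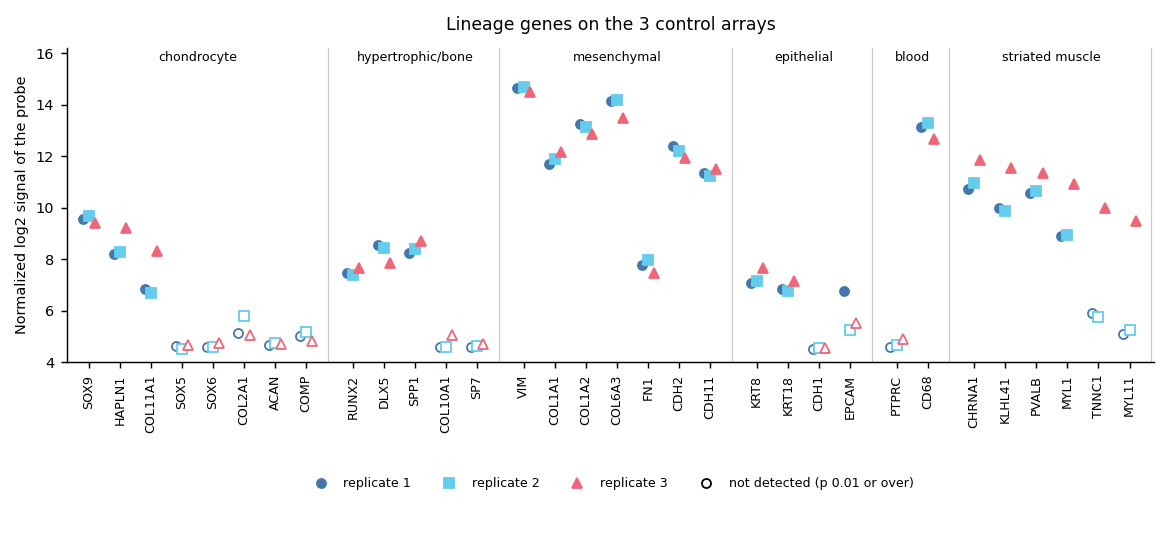
Normalized log2 signal of lineage genes on each control array (circle, square and triangle for replicates 1, 2 and 3; open symbols were not detected). SOX9 lies near 9.55 while COL2A1, ACAN, SOX5 and SOX6 are open on all 3 arrays, and TNNC1 and MYL11 are filled on replicate 3 only.

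Genes of body position and limb were expressed in part. Of 29 HOX genes with a named probe 7 (24.1%) were expressed, a count that was 13 at a detection p under 0.05 and 4 when every named probe had to pass. HOXC6 had 9.62, 9.40 and 9.74 by 1 of 4 probes, HOXB2 8.73, 8.69 and 8.80, and HOXC13 8.36, 8.38 and 8.23; the other expressed members were HOXC4, HOXB6, HOXD13 and HOXD12. HOXC4 stood apart on replicate 3, with 7.11 there against 8.58 and 8.39 on replicates 1 and 2. Limb regulators were expressed in 9 of 22 cases (40.9%), near the share of all genes. PITX1, a hindlimb homeobox factor, had 9.29, 9.31 and 9.36, TBX15, a T-box factor of limb and skeleton, had 8.29, 8.22 and 8.47, and NKX3-2, which acts early in cartilage formation, had 8.40, 8.09 and 8.18. TBX4 and TBX5, the T-box genes of hindlimb and forelimb buds, were not detected.

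The start-site windows of expressed genes held more CpG than those of genes not detected. Windows from 250 bases before to 50 after the RefSeq start site (build GRCh38.p14) were matched by gene ID for 14077 of 17331 named protein-coding genes (81.2%). The ratio of CpG dinucleotides observed to those expected from the C and G content had a median of 0.852 in 7039 expressed genes and 0.542 in 6049 genes not detected. A ratio of 0.6 or more was found in 85.1% of expressed genes, 70.8% of genes on 1 or 2 arrays and 46.7% of genes not detected, against 67.6% of all windows. In 4 equal classes of expressed genes from dim to bright the share was 80.7%, 84.8%, 86.7% and 88.2%. The TATA motif TATAAA was sought on the gene's strand, wholly within the stretch from 50 to 10 bases before the start. It stood in 1.85% of expressed genes and 5.98% of genes not detected (3.75% of all). The ETS-type motif ACTTCCG, on either strand, stood in 14.7% and 4.63% (10.1% of all), and the GC box GGGCGG, on either strand, in 71.0% and 46.5% (59.9% of all). The CCAAT motif, on either strand, differed little, with 37.7% and 35.0% (36.7% of all). These are descriptions over genes, which are not replicates, and a match shows no binding.

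Of 6 examples, 3 expressed and 3 not detected, MYD88 and COL10A1 followed this pattern, while COL6A3, KLHL41, ACAN and PTGS2 lay on the other side of a ratio of 0.6 from most genes of their kind. Each line gives the 150 bases before the RefSeq start site, in the direction of transcription, with CpG dinucleotides and a TATAAA in the stretch above in capitals. Coordinates are those of the printed bases, while the ratios are those of the whole, longer windows. MYD88 (chr3:38138511-38138660, plus strand), an adaptor of IL-1 receptors, was expressed with a CpG ratio of 0.775. COL6A3 (chr2:237414165-237414314, minus strand), a chain of type VI collagen, and KLHL41 (chr2:169509552-169509701, plus strand), a protein of muscle sarcomeres, were expressed with ratios of 0.183 and 0.0913.
MYD88: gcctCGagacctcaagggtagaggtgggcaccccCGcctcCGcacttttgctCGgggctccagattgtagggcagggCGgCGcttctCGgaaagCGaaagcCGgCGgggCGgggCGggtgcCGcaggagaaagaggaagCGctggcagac
COL6A3: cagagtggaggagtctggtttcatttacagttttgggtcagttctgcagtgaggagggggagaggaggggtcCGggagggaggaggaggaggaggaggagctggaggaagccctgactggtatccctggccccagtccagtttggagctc
KLHL41: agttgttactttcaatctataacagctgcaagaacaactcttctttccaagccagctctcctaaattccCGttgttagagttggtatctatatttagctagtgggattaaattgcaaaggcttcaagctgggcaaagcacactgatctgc
ACAN (chr15:88803286-88803435, plus strand) was not detected although its ratio was 0.81. COL10A1 (chr6:116217145-116217294, minus strand) was not detected with a ratio of 0.128, and PTGS2 (chr1:186680424-186680573, minus strand), the inducible prostaglandin synthase, was not detected with a TATAAA and a ratio of 0.637.
ACAN: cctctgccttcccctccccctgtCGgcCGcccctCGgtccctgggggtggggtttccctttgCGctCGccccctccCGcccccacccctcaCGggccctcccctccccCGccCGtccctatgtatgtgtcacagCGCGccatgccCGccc
COL10A1: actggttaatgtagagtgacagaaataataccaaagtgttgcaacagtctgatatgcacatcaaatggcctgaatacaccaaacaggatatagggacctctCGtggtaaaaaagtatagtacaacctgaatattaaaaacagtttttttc
PTGS2: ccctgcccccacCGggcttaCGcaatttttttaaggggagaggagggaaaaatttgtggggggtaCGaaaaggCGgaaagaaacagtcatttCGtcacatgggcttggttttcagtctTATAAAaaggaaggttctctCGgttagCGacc
MYD88 and ACAN carry 14 and 12 CpG in these stretches, PTGS2 carries 7, and COL6A3, KLHL41 and COL10A1 carry 1 each.

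**Figure D3:**
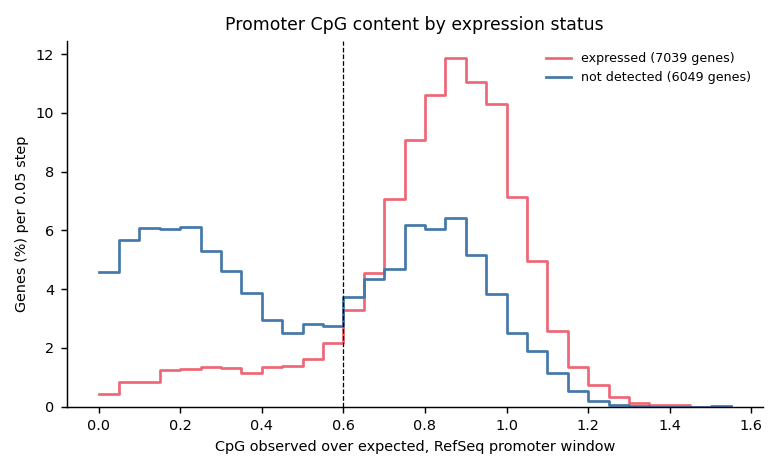
Distribution of the CpG observed over expected ratio of RefSeq promoter windows, in percent of genes per step, for 7039 expressed and 6049 undetected protein-coding genes; the dashed line is at 0.6. Expressed genes form 1 peak above the line, while undetected genes have a peak on each side of it.

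Collagens counted 18 of 42 (42.9%), a share near that of all genes. COL6A3 had 14.13, 14.18 and 13.50, COL1A2 the values above, and COL5A1, which helps to start type I fibrils, 12.33, 12.38 and 12.09. The basement membrane collagen COL4A1 had 11.05, 11.35 and 11.01. The machinery that folds and links collagen was fuller, with 21 of 31 genes (67.7%). P4HB, a subunit of prolyl hydroxylase, had 13.02, 13.15 and 12.73, PLOD2, a lysyl hydroxylase, had 12.21, 12.29 and 12.30, and PLOD1, another, had 12.06, 12.01 and 11.54. The crosslinking oxidase LOX was expressed at 10.56, 10.71 and 10.09, and LOXL1, LOXL2 and LOXL4 were not detected.

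Proteoglycan core proteins counted 15 of 35 (42.9%), also near the background. CD44, the hyaluronan receptor, which can carry glycosaminoglycan chains, had 12.99, 12.93 and 12.81, SPOCK1 (testican) 11.23, 11.22 and 11.31, and SRGN (serglycin) 10.90, 10.87 and 10.10. The large matrix proteoglycans ACAN, VCAN and HSPG2 (aggrecan, versican and perlecan) were all undetected, as was the small proteoglycan FMOD. BGN (biglycan) had 9.50, 9.27 and 10.23. Enzymes that build the sugar chains were common all the same, with 22 of 30 (73.3%) expressed. The chondroitin synthase CHSY1 had 11.24, 10.82 and 11.39, the dermatan epimerase DSE had 10.64, 10.68 and 10.74, and the chain-starting xylosyltransferase XYLT2 had 10.53, 10.47 and 10.51. HAS2, a hyaluronan synthase, passed on replicate 3 only.

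Other matrix glycoproteins counted 24 of 50 (48.0%), close to the background. SPARC (osteonectin) had 12.23, 12.22 and 12.47, MATN2, a matrilin found beyond cartilage, 10.96, 10.96 and 11.02, and CCN1, a matricellular target of YAP, 10.55, 10.94 and 11.29. Laminin chains counted 7 of 10 (70.0%), with LAMC1 at 12.12, 12.03 and 11.46, LAMA1 at 9.78, 10.13 and 8.62 and LAMA5 at 9.47, 9.48 and 9.11. LAMA1 was lower on replicate 3 than on both other arrays by more than 1 log2 unit. Integrins counted 12 of 26 (46.2%). ITGB1, the common beta chain, had 13.74, 13.68 and 14.04, ITGB5 13.29, 13.24 and 13.10, and ITGA3 12.52, 12.30 and 12.54. Of the collagen-binding alpha chains, ITGA10, which chondrocytes use for type II collagen, was expressed at 10.43, 10.36 and 9.65, beside ITGA11, ITGA2 and ITGA1.

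Inhibitors of matrix proteases were bright and the collagenases MMP1 and MMP13 were not detected. MMPs and their inhibitors together counted 10 of 28 (35.7%). TIMP1 had 14.32, 14.24 and 13.94, TIMP2 12.71, 12.88 and 12.97, and TIMP3, which also blocks aggrecanases, 9.72, 9.61 and 8.78. Of the proteases, MMP7 had 8.24, 7.98 and 8.51, MMP2 (gelatinase A) 8.30, 8.31 and 8.12, MMP10 7.89, 7.98 and 8.36 and MMP14, the membrane enzyme that activates MMP2, 7.63, 7.31 and 7.69. MMP3 (stromelysin) was already expressed without IL-1, at 8.37, 8.16 and 7.51. The collagenases MMP1, at 5.51, 5.19 and 5.56, and MMP13, at 4.75, 4.94 and 5.65, were not detected on any array, and their lowest detection p were 0.0171 and 0.0158, both on replicate 3. ADAM and ADAMTS genes counted 8 of 31 (25.8%), but 2 when every named probe had to pass, and were led by ADAM15 at 11.61, 11.57 and 10.94, ADAM19 at 10.47, 10.51 and 10.70 and ADAM10, a sheddase, at 8.21, 7.97 and 9.14. The aggrecanases ADAMTS4, at 4.47, 4.50 and 4.72, and ADAMTS5, at 4.46, 4.49 and 4.68, were not detected. The plasminogen group counted 5 of 8: ANXA2 and S100A10, which together hold plasminogen at the cell surface, had 14.38, 14.56 and 14.70 and 14.51, 14.38 and 14.48, and the inhibitor SERPINE2 had 14.17, 14.13 and 13.83. PLAUR, the urokinase receptor, and PLAT, tissue plasminogen activator, were the other expressed members, and PLAU (urokinase) passed on 2 arrays.

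The receptor for IL-1 was at the edge of detection while the route behind it was well represented. IL-1 family receptors counted 1 of 10 (10.0%), and that one was IL1RAPL1, a receptor-like protein known from neurons, at 7.19, 7.19 and 6.50. IL1R1 had 6.02, 4.83 and 5.74 by its only probe, with detection p of 0.0092, 0.162 and 0.0158, so it passed on replicate 1 alone. IL1RAP had 5.43, 4.71 and 6.05 by the brightest of its 3 probes and passed on replicate 3 alone. The decoy receptor IL1R2 lay at 4.65, 4.61 and 4.97 and was not detected, nor was the regulator SIGIRR. The lowest level that counted as detected was 6.02, 6.13 and 5.93 on the 3 arrays, so IL1R1 on replicate 1 and IL1RAP on replicate 3 lay just above that level and both genes lay below it on the other arrays.

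Of 17 receptor-proximal genes 12 (70.6%) were expressed, above the 44.8% of all genes. SQSTM1, a scaffold that binds TRAF6, had 11.79, 12.23 and 11.82, IRAK1 10.94, 11.06 and 11.28 and MAP3K7 (TAK1) 9.90, 9.95 and 10.41. MYD88 had 8.27, 8.20 and 8.27, TRAF6 7.28, 7.52 and 7.39 by 2 of 3 probes, and TAB1, a partner of TAK1, 7.55, 8.05 and 7.61. IRAK2 was expressed at 7.35, 7.34 and 6.80. IRAK3, an inhibitory member that acts as a brake, was not detected. IRAK4, another IRAK kinase, had no named probe, so its transcript could not be read here.

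The NF-kB group counted 19 of 31 (61.3%). BIRC2, a ubiquitin ligase, had 10.79, 11.05 and 10.36, NFKB1, the p105 precursor, 10.62, 10.69 and 10.51, and NFKBIA, the inhibitor that holds NF-kB in the cytoplasm, 10.21, 10.43 and 9.80. The kinase subunits CHUK, IKBKB and IKBKG were all expressed, IKBKG at 9.93, 10.01 and 9.55. RELA had 6.83, 6.64 and 7.13. Among the members that missed the rule, TNFAIP3, RELB, TRAF1 and REL were not detected, and NFKB2 passed on 2 arrays. MAP kinase genes counted 26 of 30 (86.7%), with MAPKAPK3 at 11.23, 11.16 and 10.72, MAPK6 at 10.68, 10.87 and 11.25 and MAP2K2 at 10.82, 10.77 and 10.90. The JNK genes MAPK8 and MAPK9 were expressed and MAPK10, known from neurons, was not detected.

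AP-1 and related factors counted 13 of 21 (61.9%). JUND had 13.50, 13.57 and 13.36, ATF4 13.12, 13.04 and 13.14, and CREB1 12.05, 12.31 and 11.10. JUN had 10.59, 10.70 and 10.41, and FOSL1 7.65, 7.86 and 8.31. FOS lay at 5.93, 5.75 and 6.17 and passed on replicate 3 only, so of these AP-1 partners JUN was detected on all 3 arrays and FOS on 1. Of 19 immediate early genes 12 (63.2%) were expressed, with KLF6 at 11.96, 12.12 and 11.89, CCN1 as above, CCN2 at 9.95, 9.96 and 10.89 and MYC at 9.87, 9.92 and 9.44. NR4A1, NR4A3 and EGR4 were not detected.

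Cytokines and chemokines counted 9 of 31 (29.0%), and 4 at a detection p under 0.001. MIF, a constitutively made cytokine, had 13.15, 13.11 and 13.54, CCL26 8.11, 8.29 and 7.23 and CXCL16 7.51, 7.64 and 7.36. CXCL8 (interleukin-8) was expressed near the threshold by 1 of 2 probes, at 6.53, 6.84 and 6.86, and CCL2 at 6.87, 6.38 and 6.52. IL6 lay at 4.60, 4.60 and 4.73 and was not detected, nor were CXCL1, CXCL2, CCL20, LIF, CSF3 or TNF. PTGS2 lay at 4.91, 4.68 and 5.43 and was not detected. Of the 11 IL-1 family ligands IL18, at 11.57, 11.67 and 10.82, and IL36B, at 9.67, 9.58 and 8.92, were expressed. Only 1 of these ligands was left when every named probe had to pass. IL1A, at 4.51, 4.49 and 4.56, IL1B, at 4.44, 4.61 and 4.57, and the antagonist IL1RN were not detected.

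**Figure D4:**
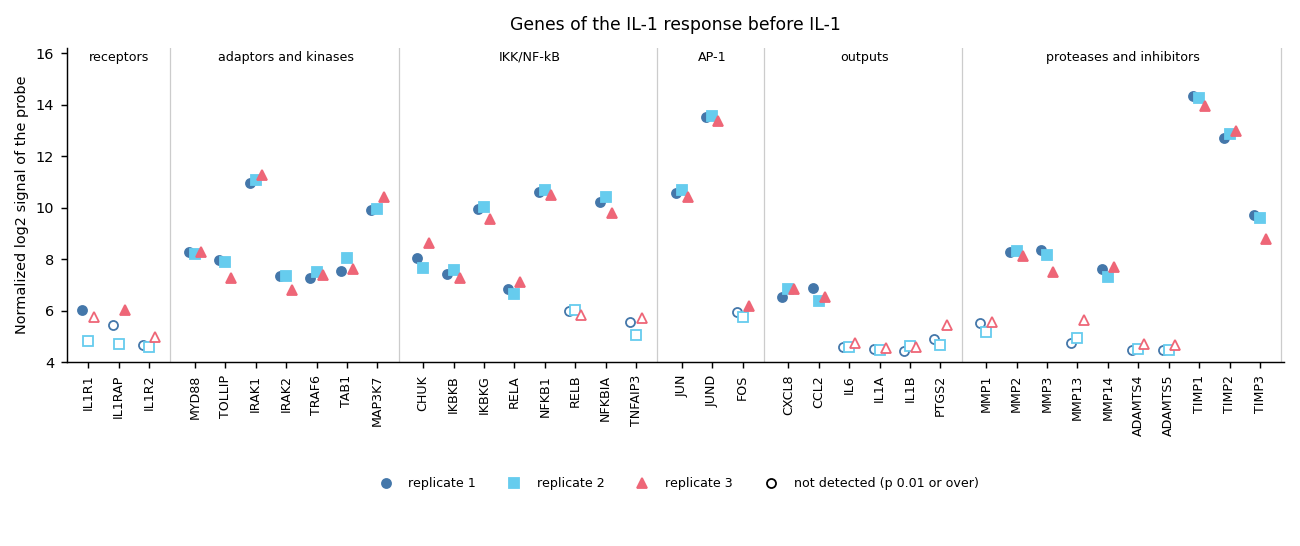
Normalized log2 signal of genes of the IL-1 route on each control array, from receptors to targets (symbols as by replicate; open symbols were not detected). Apart from RELB and TNFAIP3, the plotted genes from adaptors to NF-kB are filled on all 3 arrays. IL1R1 and IL1RAP are filled on 1 each, and IL6, IL1A, IL1B, MMP1, MMP13, ADAMTS4 and ADAMTS5 on none. The panel is a selection: 12 of 17 receptor-proximal and 19 of 31 NF-kB genes were expressed. Members that missed the rule, such as IRAK3, TRAF1, REL and NFKB2, are not plotted.

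Receptors of other pathways were expressed in part. Toll-like receptors and their partners counted 4 of 15 (26.7%): the endotoxin pair TLR4, at 8.06, 7.95 and 7.72, and LY96 (MD-2), at 11.83, 11.76 and 11.55, with the adaptors TICAM1 and TICAM2, but without the co-receptor CD14. TNF receptors counted 7 of 28, with TNFRSF21 at 11.55, 11.58 and 11.43, LTBR at 10.66, 10.76 and 11.03, and TNFRSF1A, the main TNF receptor, at 10.67, 10.81 and 10.71. Cytokine receptors counted 19 of 42 (45.2%). IL10RB had 10.66, 10.63 and 11.03, IL6ST (gp130), the shared chain for the IL-6 family, 10.59, 10.56 and 10.44 and IL13RA1 10.55, 10.37 and 10.63. IL6R was not detected, whereas OSMR, the oncostatin M receptor, was expressed at 6.26, 6.76 and 7.66. Chemokine receptors counted 4 of 20 (20.0%), namely CCR6 at 13.31, 13.22 and 12.76 by 1 of its 3 probes only, ACKR3 at 10.40, 10.13 and 10.30, CXCR4 at 9.54, 9.78 and 8.86 and CCR1 by its only probe.

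Receptor tyrosine kinases counted 23 of 51 (45.1%), the same share as all genes to within 1 point. AXL had 11.45, 11.60 and 11.54, RYK, a WNT co-receptor, 9.91, 9.85 and 10.86, and PDGFRB 9.59, 9.59 and 9.08. EGFR had 8.38, 8.61 and 8.37 by 2 of 4 probes. FGFR1, at 5.97, 5.09 and 5.46, and FGFR3, the brake on growth plate chondrocytes, at 4.99, 5.22 and 5.17, were not detected, and INSR was not either. DDR2, a collagen receptor, had 7.42 on replicate 3 against 9.26 and 9.38 on replicates 1 and 2. TGF-beta and BMP receptors counted 7 of 13 (53.8%), and 4 when every named probe had to pass. TGFBR2 had 11.72, 11.79 and 11.08 by 2 of 4 probes, ACVR1 11.22, 11.14 and 11.34 and ENG 10.09, 10.09 and 9.83. TGFBR1, the signalling partner of TGFBR2, lay at 4.62, 4.60 and 4.80 by its only probe. SMADs counted 6 of 12, with SMAD5 at 10.32, 10.08 and 10.12, SMAD4 at 9.75, 9.56 and 10.18 and SMAD3 at 9.55, 9.56 and 8.91.

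WNT receptors and their route counted 19 of 29 (65.5%), led by FZD7 at 10.44, 10.34 and 10.91, RYK, and FZD2 at 10.12, 10.08 and 9.83. Hedgehog and PTHrP genes counted 3 of 15 (20.0%): GAS1, a co-receptor, at 8.57, 8.38 and 8.88, GLI3 at 7.87, 7.66 and 6.17 and SMO at 6.85, 6.37 and 6.00. The hedgehog targets PTCH1, GLI1 and HHIP and the PTHrP receptor PTH1R were not detected. Notch genes counted 8 of 20 (40.0%), with HES4 at 8.96, 8.96 and 8.74, NOTCH2 at 9.06, 8.98 and 8.61 and RBPJ at 8.51, 8.45 and 8.98. Nuclear receptors counted 15 of 40 (37.5%), and 8 at a detection p under 0.001, with RARA at 10.51, 10.71 and 10.01, PPARG as above and RXRA at 9.92, 9.79 and 9.68. NR3C1, the glucocorticoid receptor, was expressed at 6.91, 6.47 and 6.39 by 1 of 3 probes, and VDR and ESR1 were not detected. Receptors for prostanoids, lysolipids, adenosine and proteases counted 8 of 28 (28.6%), with F2R, the thrombin receptor, at 14.25, 14.21 and 13.91, LPAR1 at 9.17, 8.99 and 8.78 and ADORA2B at 8.23, 8.50 and 9.04. Mechanosensors and channels counted 10 of 13 (76.9%): CAV1 had 13.17, 13.31 and 12.95, GJA1 (connexin 43) 10.87, 10.80 and 10.59 and the potassium channel KCNMA1 10.55, 10.37 and 10.57. PIEZO1 and PIEZO2 were expressed, PIEZO2 at 7.69 on replicate 3 against 9.15 and 9.46 on replicates 1 and 2, and TRPV4, an osmosensor of chondrocytes, was not detected.

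The starved cells carried transcripts of division genes and of their brakes. Proliferation genes counted 23 of 28 (82.1%), with the replication licensing genes MCM3 at 10.96, 10.89 and 11.09, MCM6 at 10.57, 10.51 and 10.71 and MCM7 at 10.55, 10.56 and 10.45. Mitotic genes such as TOP2A, at 9.88, 10.09 and 10.05, and CDC20, at 10.00, 10.11 and 9.49, were expressed as well. MKI67, whose protein marks cycling cells, lay at 5.07, 5.15 and 4.89 by its only probe and was not detected, nor were CDC6, BUB1B or CCNE2. Cycle control genes counted 18 of 24. CCND1 (cyclin D1) had 13.23, 13.14 and 12.22 and CDKN1A (p21) 12.19, 12.32 and 11.15, both lower on replicate 3. CDKN2A, a tumour suppressor locus often deleted in chondrosarcoma, was expressed at 9.89, 10.17 and 9.62 by 2 of its 3 probes, and its neighbours CDKN2B and MTAP were expressed at 10.04, 10.21 and 10.13 and at 9.19, 8.94 and 9.16. IDH1 and IDH2, the genes mutated in many cartilage tumours, were expressed at 11.48, 11.41 and 11.78 and at 8.47, 8.43 and 8.63.

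PI3K, mTOR and FOXO genes counted 17 of 24 (70.8%), with RHEB at 12.01, 12.06 and 12.58, FOXO3 at 11.79, 11.79 and 10.30 and AKT1 at 10.56, 10.53 and 10.53. JAK and STAT genes counted 13 of 21 (61.9%), with STAT3 at 10.39, 10.48 and 10.09, PIAS4 at 9.88, 9.92 and 9.13 and JAK1 at 9.18, 9.04 and 9.88. The inducible brakes SOCS1 and CISH were not detected, and SOCS3 passed on 1 array. Hippo route genes counted 9 of 18, with VGLL4 at 11.02, 10.84 and 10.30, YAP1 at 10.47, 10.44 and 10.67 and STK4 at 9.83, 10.02 and 9.89. Growth factors and their binding proteins counted 19 of 45 (42.2%), with VEGFB at 13.03, 13.01 and 12.56, IGFBP6 at 11.94, 11.97 and 11.71 and IGFBP7 at 11.13, 11.02 and 10.56. FGF2, IGF1, IGF2, TGFB1 and GDF5, a factor of joints, were not detected.

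The brightest probes were those of translation, the cytoskeleton and a tumour antigen family. The first 20 genes by mean level were GAGE12G, GAGE4, RPL38, RPS25, EEF1A1, TPT1, RPL6, RPL41, FTL, RPS29, ACTB, ACTG1, LGALS1, RPS6, RPS27, RPS12, NPC2, OAZ1, RPS10 and TMSB4X. GAGE12G had 14.88, 15.08 and 14.79 and GAGE4 14.70, 14.88 and 15.03. GAGE genes lie in a cluster of near-identical copies on the X chromosome and are normally silent outside germ cells and tumours, and all 3 with a named probe were expressed, so which copy gave the signal cannot be told from these probes. By chromosome, from 39.4% of named genes (chromosome 4) to 51.6% (chromosome 16) were expressed. Among biotypes, 8311 of 17331 protein-coding genes (48.0%) and 45 of 1059 lncRNA genes (4.25%) met the rule.

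At the threshold, 133 expressed genes shared a highest detection p of 0.00922, since detection p moves in steps, and DYNC1LI1, GEMIN5 and ATP6V1C2 were the dimmest of them. On the next step outside, 150 genes shared a highest p of 0.0105, and MYL4, PAMR1 and TOX4 were the brightest of those. DYNC1LI1 had 6.14, 6.19 and 5.99. MYL4, a muscle myosin light chain, had 5.91, 6.38 and 9.11, so a gene can be bright on replicate 3 and still miss the rule.

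Replicate 3 stood apart from both others in part of the expressed genes. Among expressed genes 113 lay at least 2-fold above both other arrays on replicate 3 and 160 at least 2-fold below. The number at least 2-fold apart in either direction, 273, was 131 without background correction and 163 in the authors' deposited log2 values. With equal medians it was 4011, which is not comparable, because that scaling puts 8331 of the 8441 genes higher on replicate 3, with a median shift of 1.17. Those with the greatest gap upwards were PRSS3, a trypsinogen, at 8.91 on replicate 3 against 6.82 and 6.50 on replicates 1 and 2 (a difference from their mean of 2.25), HSPB3 (2.20), MIDEAS (2.02), MYL1 (2.01), CLMP (1.81), XPOT (1.76), SMYD1 (1.72), CDC42EP3 (1.71), CAVIN4 (1.65) and AFF4 (1.65). HSPB3, MYL1, SMYD1 and CAVIN4 are genes of skeletal or heart muscle. Those with the greatest gap downwards were RNA28SN5, a 28S ribosomal RNA, at 7.24 on replicate 3 against 11.16 and 11.42 on replicates 1 and 2 (-4.05), NBPF9 (-2.54), SORL1 (-2.28), NBPF10 (-2.22), TIAM2 (-2.13), ZNF827 (-2.11), TOP3A (-2.03), HACD4 (-1.96), DDR2 (-1.90) and TAOK1 (-1.89).

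A list of striated muscle genes, drawn up after these values were seen, followed the same array. It held 58 genes with a named probe, of which 14 (24.1%) were expressed, below the 44.8% of all named genes. Another 16 passed on 1 or 2 arrays and 28 were not detected. On replicate 3 there were 30 detected members, against 16 on each of replicates 1 and 2. Of all probes 27.4% were detected on replicate 3, against 26.7% and 25.9% on replicates 1 and 2. Of the 14 expressed members 13 were higher on replicate 3 than on both other arrays, with a median difference of 1.23. CHRNA1, a subunit of the muscle acetylcholine receptor, had 11.85 on replicate 3 against 10.71 and 10.94 on replicates 1 and 2. KLHL41 had 11.54 there against 9.99 and 9.87, and MYL1, a fast myosin light chain, 10.94 against 8.91 and 8.95. The muscle regulator MYOG had 7.75 on replicate 3 against 7.11 and 6.48. Among members detected on replicate 3 alone, TNNC1 (troponin C) lay at 10.00 there against 5.90 and 5.76, and MYL11, another myosin light chain, at 9.49 against 5.11 and 5.23. CKM (muscle creatine kinase), ACTA1, TTN and MB were not detected on any array, whereas PVALB and MYL2 were among the expressed members. With all 6 arrays normalized together, PVALB had 11.34 on replicate 3 against 10.55 and 10.60 on replicates 1 and 2. MYL2 had 9.01 there against 7.73 and 7.60. The summed raw signal of all 58 was 41404 on replicate 3 against 8266 and 6468 on replicates 1 and 2, while that of the ribosomal proteins was 1574575 on replicate 3 against 599859 and 492470, and that of all probes 31697245 against 13263225 and 10309762, so raw signals of other genes were also higher on replicate 3. Thus transcripts of a minority of the listed muscle genes were detected on all 3 arrays, and most of these were brighter on the array of the other title kind. Whether the difference lies in the cells or in the array could not be told apart.

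**Figure D5:**
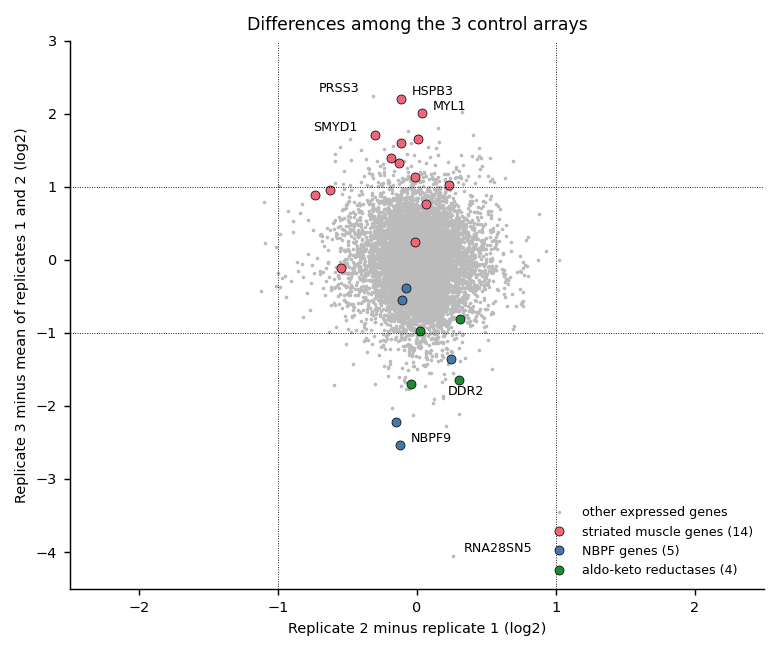
For each of 8441 expressed genes, the difference between replicate 3 and the mean of replicates 1 and 2 (vertical, log2) against that between replicates 2 and 1 (horizontal, log2); dotted lines mark 2-fold. The vertical spread is wider than the horizontal one, striated muscle genes lie above 0 in 13 of 14 cases, and NBPF genes and aldo-keto reductases lie below 0 in 5 of 5 and 4 of 4 (scaling to equal medians, which shifts all genes on replicate 3 by a median of 1.17, puts 2 of each family above both other arrays, with 0 of 5 and 0 of 4 above that shift).

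A pair of other families, also drawn up after the values were seen, ran the other way. All 5 expressed NBPF genes, a family of near-identical copies, were lower on replicate 3 than on both other arrays, with a median difference of -1.36, although 2 of the 5 lay above both when arrays were scaled to equal medians, and 0 of the 5 above the shift of 1.17 built into that scaling. NBPF10 had 10.82 on replicate 3 against 13.12 and 12.97. It was expressed by 2 of 6 probes and NBPF9 by 1 of 2, and only 1 NBPF gene was left when every named probe had to pass. Whether the 5 genes gave separate signals was not tested. All 4 expressed aldo-keto reductases, enzymes that reduce carbonyl groups and steroids, were lower too, with a median of -1.31, although 2 of the 4 lay above both under that same scaling, and 0 of the 4 above its shift. AKR1B10 had 9.37 on replicate 3 against 10.86 and 11.16. The same gap between title kinds was seen on the 3 IL-1 arrays, which hold 2 Allstars arrays and 1 Sample array of their own. Of the 113 genes above, 112 were also higher on the Sample array of the IL-1 group than on both its Allstars arrays, and of the 160 below, 160 were lower. For comparison, 3649 of all 8441 expressed genes were higher there and 3609 were lower. Across genes the difference between kinds on the control arrays and on the IL-1 arrays had a Pearson r of 0.84, over 8441 genes, which are not independent replicates. Striated muscle members detected on the IL-1 arrays numbered 27 on the Sample array and 13 and 11 on the Allstars arrays.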

How the data were processed

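Per the file headers, each array has a column of probe intensity and one of detection p-value in the deposited table, and no normalization is mentioned. A second deposited table holds the authors' log2 values. The submitters' processing notes name lumi, while the genome build and any settings are not given in the sources used here. Medians of the log2 values, 5.86, 5.87 and 6.50 on the control arrays, differ between title kinds. The members and gene lists were chosen with earlier results of these data known, and the lists of striated muscle, NBPF, aldo-keto reductase, GAGE, cancer-testis and growth hormone and pregnancy glycoprotein genes after their values were seen.

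The neqc function of limma 3.58.1 (R 4.3.3) was run on the 3 control arrays: normexp background correction with negative beads inferred from the detection p-values, an offset of 16, quantile normalization and log2. The detection p-values move in steps that correspond to 759 negative controls. Probes were named through the platform annotation: 28085 probes had 1 gene, 13 several and 20686 were not listed, and 28046 had a gene ID in the RefSeq table, which changed 0 symbols. A gene's level is that of its brightest expressed probe, or of its brightest probe where none was expressed. Of 3365 expressed genes with more than 1 probe, 1157 had every probe expressed. No columns were left unmapped (0), and no arrays held identical values.

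The rule for naming genes covered the 20 brightest and the 3 brightest expressed members of each list (all where 5 or fewer). It also covered the 10 highest and 10 lowest differences of replicate 3 from the mean of replicates 1 and 2. Further parts were 3 genes on each side of the threshold and a fixed list of cartilage, matrix and IL-1 genes. Not every gene under the rule is given above. Members of the fat cell, NBPF, aldo-keto reductase, GAGE, proteasome and olfactory receptor lists are among those left out. Other genes, undetected list members among them, were named after their values were seen. With 1 group no test between groups was run. The normalization was tested on simulated data. Alternatives were other detection thresholds, fewer arrays, other rules for probes, other normalizations, the deposited log2 values and leaving out each array.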

Additional observations from a re-analysis of the deposited data

How the results depend on the processing

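Counts of expressed genes lay between 8556 and 8674 when 1 array was left out, and those of expressed probes between 12048 and 12266, against 8441 and 11847. Under other thresholds, numbers of arrays and probe rules, 6233 (every named probe) to 9779 (detection p under 0.05) genes were expressed. Of 531 list counts under 9 alternatives, 480 stayed within 1.5 times and 51 did not: 23 when every named probe had to pass, 11 at a detection p under 0.001, 9 with 1 array enough, 6 at a detection p under 0.05, 1 with 2 arrays enough and 1 without replicate 2. Of the levels of 51 key genes, 46 moved by over 1 SD in the deposited values, 33 without background correction, 14 with equal medians, 1 with neqc on all 6 arrays and 0 when an array was left out. The median level of expressed genes, 8.65, was between 8.65 and 8.66 without 1 array, 8.41 with equal medians and 8.13 in the authors' deposited log2 values. The share of CpG-rich promoters among expressed genes, 85.1%, was 83.6% at a detection p under 0.05 and 86.2% under 0.001. The count of genes at least 2-fold apart on replicate 3, 273, was 131 without background correction, 163 in the authors' deposited log2 values and 4011 with equal medians, a scaling that shifts all expressed genes on replicate 3 by a median of 1.17. The deposited values shift them by 0.25. Relative to those shifts, the median differences with equal medians and in the deposited values were 1.22 and 0.95 for striated muscle, -1.52 and -0.62 for NBPF and -1.22 and -1.09 for aldo-keto reductase genes. Without that adjustment 2 of 5 NBPF genes and 2 of 4 aldo-keto reductases lay above both other arrays with equal medians. The same difference between title kinds on the IL-1 arrays, added after seeing the data, gave 328 genes. No paired analysis was possible because only 1 group was described. Dim genes are limited by signal over background, lowest on replicate 2.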

Other observations

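Beyond the lineage and signalling genes, transcripts of germ cell antigens were detected. Of 74 cancer-testis genes with a named probe, a list drawn up after the values were seen, 33 (44.6%) were expressed, a share near that of all genes, 44.8%, and 17 when every named probe had to pass. Mean levels of the expressed members ran from 6.46 to 14.92, with a median of 9.66 against 8.65 for all expressed genes. Some were bright: besides GAGE, PAGE2 had 12.35, 12.12 and 11.93, and MAGEC2 11.87, 11.92 and 11.86. SPANXA2 had 11.69, 11.74 and 10.72, and SSX1 10.07, 10.01 and 10.36. MAGEA4, PAGE4 and the germ cell genes DDX4, DAZL and SYCP1 were not detected, and PRAME passed on 2 arrays. Many of these genes have near-identical copies, so the count of members is uncertain.

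Some placental genes were expressed too. In a list of growth hormone and pregnancy glycoprotein genes, also drawn up after the values were seen, 12 of 22 (54.5%) were expressed. The share of all named genes was 44.8%. The list count was 9 at a detection p under 0.001 and 6 when every named probe had to pass. PSG4 had 11.08, 11.06 and 10.67, CSH1 (placental lactogen) 9.08, 8.84 and 10.48, and GH1 8.13, 8.04 and 9.44, the last 2 genes being highest on replicate 3. CGA, the common hormone alpha chain, was not detected. These families also consist of near-identical copies. Among lncRNA genes SNHG5 had 12.66, 12.49 and 12.65 and MEG3, an imprinted transcript, 10.25, 10.09 and 10.27, while H19 and MALAT1 were not detected.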
